A study of Homo sapiens with 8 samples.

Results

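Collagens are the structural proteins of the extracellular matrix, and 37 of the 20195 genes that the assembly named and that had at least 1 read are collagen genes. They were chosen by symbol: every row of the combined transcript count table whose gene name is COL, a number, A and a number, and whose transcript carries a gene name in the assembly, was summed per gene. This gave 171 transcripts of 96614 in the table. Another 12 transcripts that lie within introns or on the opposite strand of a collagen gene were left out of the sums, and COL10A1 was found only among them. The members comprise 10 of the 11 fibrillar collagen genes, all 6 basement membrane (type IV) genes and 21 of 27 other collagen genes known in the human genome.

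All RNA was from the established line H1, pluripotent cells derived from a human embryo, and each group had 2 repeats. The undifferentiated cells, labelled hPSC, grew on Matrigel, a basement membrane extract, in mTeSR1. Endoderm was made in RPMI with 0.5% FBS, WNT3A and Activin A at 100 ng/ml. Mesoderm was made in DMEM/F12 with 0.5% FBS, VEGF at 100 ng/ml, BMP4 at 100 ng/ml and bFGF at 10 ng/ml, with Activin A at 100 ng/ml added for the opening 24 h. Ectoderm was made in DMEM/F12 with 15% KOSR and 2 µM each of A83-01, PNU-74654 and Dorsomorphin, which inhibit TGF-beta family, WNT and BMP signalling. Differentiated cells were collected after 5 days. All groups are 1 cell line in culture, and the labels do not say whether the repeats were separate cultures, so a p-value measures the spread between these libraries, which may be technical. In RNA from a whole culture, fewer cells that express a gene and less RNA per cell cannot be told apart.

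Long reads of polyadenylated RNA came from a PacBio Sequel II instrument, and each count is a read assigned to a transcript. Library totals ran from 503840 to 585558 reads in hPSC, endoderm and mesoderm (1 endoderm library had 586183) and were 1180888 and 967206 in ectoderm. CPM below is the count scaled to 1e6 reads of the library total. The labelled cell types were checked against marker genes. Pluripotency markers summed to 3657 and 3459 CPM for hPSC, 1271 and 1708 for ectoderm, 1990 and 1696 for endoderm, and 292 and 274 for mesoderm. Their member LIN28A was higher in ectoderm (1079 ± 284 CPM) than in hPSC (711 ± 140). Definitive endoderm markers summed to 2266 and 2380 CPM in endoderm against at most 15.1 elsewhere. PAX6, SIX3 and LHX5 of the neural list were high in ectoderm, at 170 and 79, 133 and 88, and 235 and 156 reads. SOX1, also of that list, was not listed in the table. The whole neural list summed to 628 and 480 CPM in ectoderm and to 427 and 430 in endoderm, where OTX2 was higher (409 ± 3.93 CPM against 144 ± 13.3), and NES was at 15.4 ± 5.73 CPM in ectoderm against 21.5 ± 7.74 in hPSC. In mesoderm HAND1 had 263 and 274 reads, but TBXT had 1 and 0, and FOXF1 and MIXL1 were at 0 in both libraries. A list of 8 amnion and trophoblast markers summed to 6735 and 7377 CPM in mesoderm and to between 19.6 and 85.5 CPM in the other 6 libraries. The repeats of hPSC differed from each other more than those of any other group: a chi-square of their counts was 7.62 per degree of freedom, against 1.59 to 2.18 in the other groups.

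A collagen molecule is built from 3 chains wound around each other, and each chain repeats a triplet of amino acids that begins with glycine, written GGN in DNA. In most fibrillar collagens the repeat runs unbroken, and fibrillar molecules line up side by side into the fibrils of skin, bone and cartilage. In type IV collagens the repeat is broken at many points, and the molecules join into the flexible network of basement membranes, the first matrix that an embryo lays down. The other collagens sit on fibril surfaces, form beaded filaments or short networks, or cross the cell membrane. The following stretches are shown because they carry this difference: 90 coding bases from the start of the longest unbroken run of COL3A1, and the 45 coding bases before and after the end of the longest run of COL4A1. GGN codons are in capitals, the sequences are from GENCODE 29, and the lower-case gap in COL4A1 is the break.
COL3A1: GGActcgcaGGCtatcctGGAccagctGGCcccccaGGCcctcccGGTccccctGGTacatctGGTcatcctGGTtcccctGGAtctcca
COL4A1: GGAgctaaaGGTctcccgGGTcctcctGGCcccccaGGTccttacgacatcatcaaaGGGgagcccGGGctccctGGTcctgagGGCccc

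All 37 members had a coding sequence in GENCODE 29, and the longest was used for each. The longest unbroken GGN run had a median of 338 triplets in the 10 fibrillar genes (217 to 343), 41 in the 6 basement membrane genes (38 to 66) and 56 in the 21 others (23 to 113). Nearly all fibrillar genes were at 337 to 343 triplets, with COL27A1 alone shorter, at 217. The COL27A1 repeat was broken, with 330 triplets in 3 runs of at least 10, against 354 to 360 in 2 runs in the other fibrillar genes. The coding parts of fibrillar exons were often exactly 54 bases, which is 6 triplets: the median share was 46.2% (41.2% to 54.1%) against 4.05% (2.13% to 5.66%) in basement membrane genes. These figures describe the reference genes and are independent of the counts.

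Collagen reads made up 0.151% and 0.0699% of the hPSC libraries, 0.196% and 0.221% of ectoderm, 0.250% and 0.216% of endoderm, and 0.688% and 0.752% of mesoderm. The mesoderm excess lay in the fibrillar class. Fibrillar reads summed to 446 ± 34.1 CPM for hPSC, 588 ± 35.9 for ectoderm, 626 ± 53.8 for endoderm, and 5905 ± 362 for mesoderm (mean ± SD, n = 2 throughout). Fibrillar genes held 82.1% and 81.9% of the collagen reads of mesoderm and between 23.5% and 60.3% in the other libraries. Basement membrane reads summed to 115 ± 54.8 CPM for hPSC, 650 ± 63.2 for ectoderm, 405 ± 92.0 for endoderm, and 241 ± 15.8 for mesoderm. The rest summed to 541 ± 481 CPM in hPSC, where the repeats held 882 and 201 CPM, and to 846 ± 72.9, 1300 ± 195 and 1053 ± 77.5 in ectoderm, endoderm and mesoderm.

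**Figure D1:**
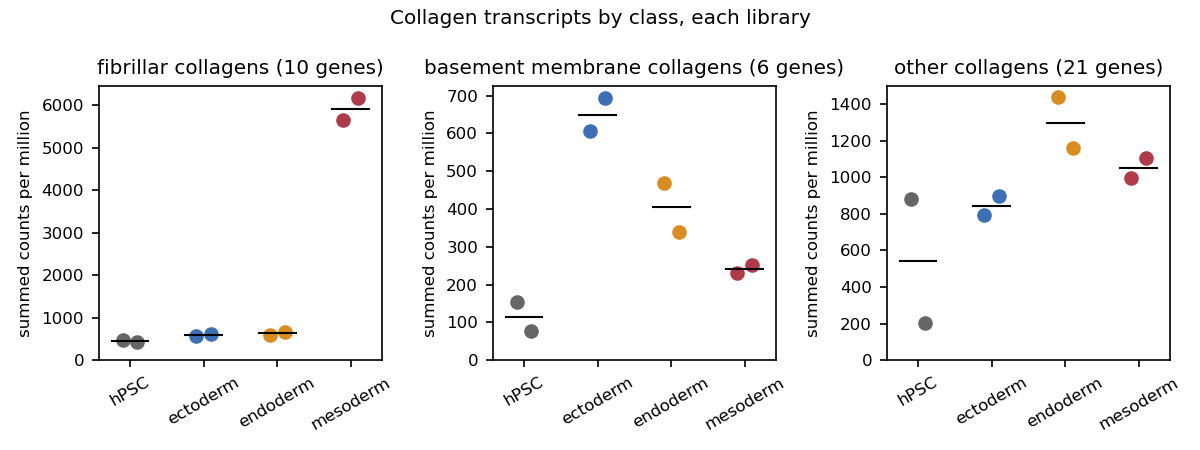
Summed CPM (vertical axis, from 0, a different scale in each panel) of the fibrillar, basement membrane and other collagen genes in hPSC, ectoderm, endoderm and mesoderm. Points are libraries and bars are means; mesoderm stands alone for fibrillar collagens at 5905 CPM, and for basement membrane collagens ectoderm has 650 and endoderm 405 CPM, an order that turns to 512 and 537 with TMM library sizes.

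The scaling matters for these comparisons. The fold changes below come from edgeR with TMM scaling, whose factors were 1.27 in both ectoderm libraries and 0.774 and 0.726 in endoderm, so a fold change is not the ratio of the printed CPM. With library totals in place of TMM, the median log2 fold change of all 10847 genes tested moved from -0.01 to 0.39 for ectoderm against hPSC, from -0.13 to -0.46 for endoderm and from 0.01 to 0.24 for mesoderm. It moved from 0.19 to 0.94 for ectoderm against endoderm, from 0.02 to 0.21 for ectoderm against mesoderm and from -0.16 to -0.72 for endoderm against mesoderm. With TMM sizes the fibrillar sum was 471 CPM for hPSC, 463 for ectoderm, 837 for endoderm, and 5310 for mesoderm, so the small ectoderm excess over hPSC was not seen on that scale.

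Of the 37 collagen genes, 23 passed the filter on low counts: 8 fibrillar, 4 basement membrane and 11 others. In ectoderm against hPSC 13 of the 23 were called, 10 higher and 3 lower, where 48.6% of all genes tested were called, 23.8% higher and 24.8% lower. In endoderm 15 were called, 11 higher and 4 lower, against 27.1% of all genes, 13.4% higher and 13.7% lower. In mesoderm 11 were called, 10 higher and 1 lower, against 35.2% of all genes, 17% higher and 18.2% lower. The median log2 fold change of the 23 genes was 1.13, 1.11 and 1.03 in these comparisons, beside -0.01, -0.13 and 0.01 over all genes. The 3 comparisons share the hPSC libraries. All 4 basement membrane genes tested rose in ectoderm and in endoderm and 1 did in mesoderm, whereas 5 of 8 fibrillar genes rose in mesoderm, and 4 rose and 1 fell in each of ectoderm and endoderm. Of these basement membrane calls, COL4A2 was not called in endoderm with library totals (0.93, adjusted p = 0.0931) or in ectoderm with the transcript length trend removed (0.50, 0.265). With library totals the splits were 10 higher and 0 lower for ectoderm, 10 and 5 for endoderm, and 9 and 1 for mesoderm.

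Between the differentiated groups, 13 collagen genes were called in ectoderm against endoderm (6 higher, 7 lower), where 63.1% of all genes were, 33.1% higher and 29.9% lower. In ectoderm against mesoderm 16 were called (7 higher, 9 lower), with 35.5% of all genes, and in endoderm against mesoderm 16 (8 higher, 8 lower), with 47.1%. With library totals these splits became 11 and 6, 7 and 8, and 6 and 11. Over all genes the split of ectoderm against endoderm moved from 3593 higher and 3248 lower to 5162 and 2039, and that of endoderm against mesoderm from 2519 and 2588 to 1532 and 3916. For the comparisons with hPSC it moved from 2587 and 2688 to 3546 and 1787 in ectoderm, from 1457 and 1486 to 1011 and 2170 in endoderm, and from 1839 and 1976 to 2168 and 1505 in mesoderm. For ectoderm against mesoderm it moved from 1968 and 1878 to 2383 and 1439.

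**Figure D2:**
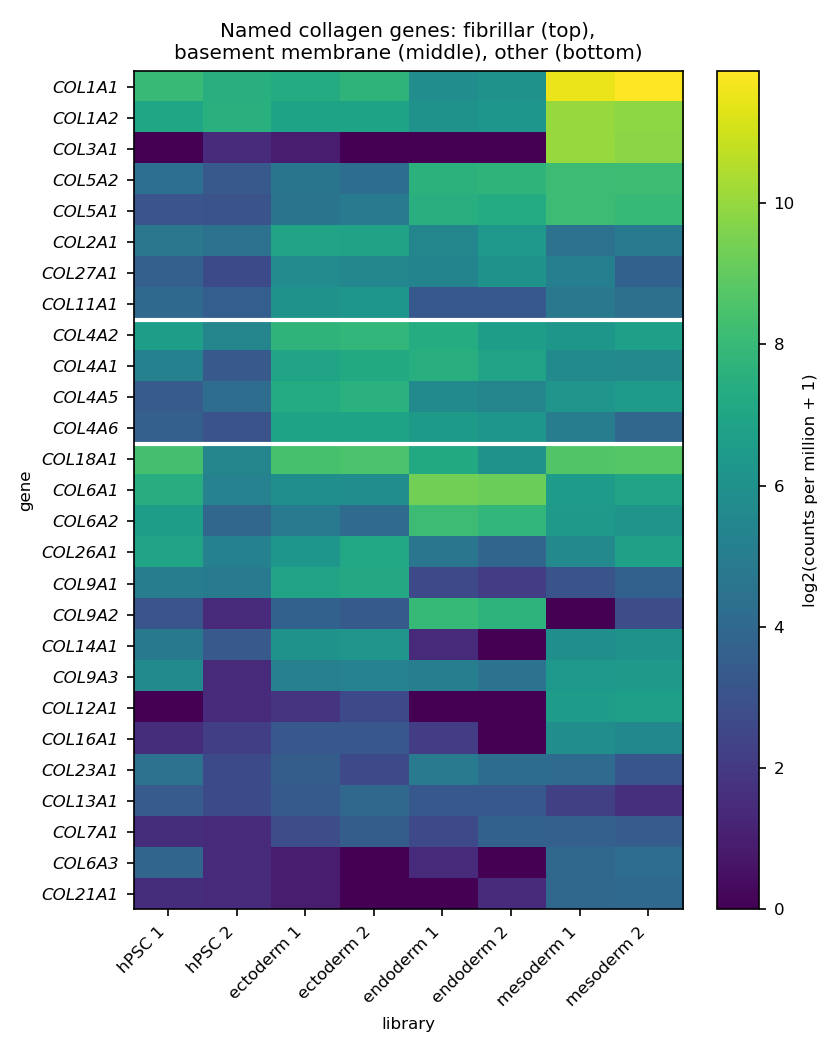
Level of the 27 named collagen genes (rows: fibrillar, basement membrane and other, separated by white lines) in the 8 libraries (columns), as log2(CPM + 1) by colour. COL3A1 and COL12A1 are bright only in the 2 mesoderm columns, COL9A2 only in the 2 endoderm columns, and COL18A1, COL6A1 and COL6A2 are darker in hPSC 2 than in hPSC 1.

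**Figure D3:**
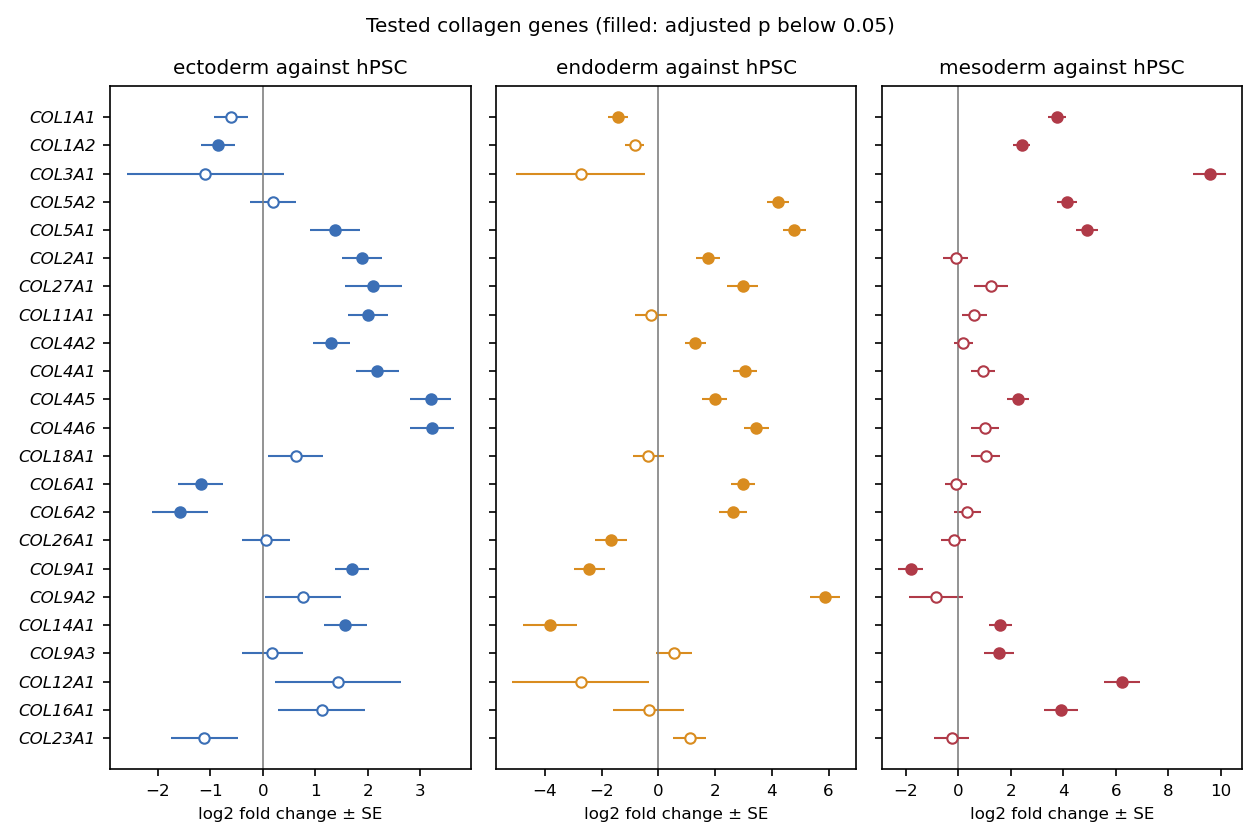
Log2 fold change against hPSC (horizontal axes, a different scale in each panel; bars are SE) of the 23 tested collagen genes (rows) in ectoderm, endoderm and mesoderm, filled where the edgeR adjusted p is below 0.05. COL4A1, COL4A2, COL4A5 and COL4A6 lie right of 0 and are filled in ectoderm and endoderm, and COL1A1, COL1A2, COL3A1, COL5A1 and COL5A2 do so in mesoderm.

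Type I collagen, the main fibrillar collagen of bone, tendon and skin, is made of 2 chains from COL1A1 and 1 from COL1A2. COL1A1 had 130 and 96 reads for hPSC, 184 and 205 for ectoderm, 32 and 40 for endoderm, and 1548 and 1880 for mesoderm. The mesoderm libraries lay far above all others and the endoderm libraries below them. Against hPSC COL1A1 rose in mesoderm (log2 fold change 3.77 ± 0.34 SE, adjusted p = 1.06e-06) and fell in endoderm (-1.41 ± 0.35, adjusted p = 0.00726), though without endoderm repeat 1 the latter was -1.16 with an adjusted p of 0.105. In ectoderm it was -0.60 ± 0.32 (adjusted p = 0.13). COL1A2 had 66 and 102 reads for hPSC, 140 and 112 for ectoderm, 39 and 43 for endoderm, and 562 and 460 for mesoderm. It rose in mesoderm (2.41 ± 0.33, adjusted p = 5.45e-05) and was -0.83 ± 0.35 in endoderm (adjusted p = 0.0858). Its change in ectoderm was -0.85 ± 0.33 (adjusted p = 0.0409), a call that ended when any library but hPSC repeat 1 was left out (adjusted p 0.0950 to 0.407) and with DESeq2 (0.0886) or library totals (0.219).

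Type III collagen, encoded by COL3A1 alone, accompanies type I in soft connective tissue and vessel walls. COL3A1 had 0 and 1 reads for hPSC, 1 and 0 for ectoderm, 0 and 0 for endoderm, and 549 and 456 for mesoderm, so it was detected at depth in mesoderm only. From pooled counts mesoderm was 1050.1-fold above hPSC (95% exact interval 188 to 41516), 2086-fold above ectoderm (374 to 82471) and at least 379-fold above endoderm, where the bound takes 3 reads over the 2 endoderm libraries as the floor. These intervals cover counting error only. The fitted change against hPSC was called (adjusted p = 9.64e-08).

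Type V collagen, which starts and limits fibril growth, is assembled from COL5A1 and COL5A2, and both were high in endoderm and mesoderm. COL5A1 had 4 and 4 reads for hPSC, 27 and 29 for ectoderm, 102 and 93 for endoderm, and 148 and 125 for mesoderm. COL5A2 had 10 and 5, 28 and 18, 116 and 123, and 147 and 148 reads in the same order. Every endoderm and mesoderm library exceeded every hPSC and ectoderm library for both genes. COL5A1 rose by 4.80 ± 0.42 in endoderm (adjusted p = 1.6e-06) and by 4.89 ± 0.41 in mesoderm (4.81e-07), and COL5A2 by 4.21 ± 0.39 (2.52e-06) and 4.12 ± 0.39 (1.46e-06). Between endoderm and mesoderm the differences were -0.09 ± 0.28 for COL5A1 (adjusted p = 0.803) and 0.09 ± 0.29 for COL5A2 (adjusted p = 0.823). In ectoderm COL5A2 changed by 0.20 ± 0.44 (adjusted p = 0.732), and COL5A1 by 1.39 ± 0.48 (adjusted p = 0.0249), a call that was lost without ectoderm repeat 2 (0.0746) or without either hPSC library (0.118 and 0.0523), and with DESeq2 (0.0896). In endoderm both type V genes rose, COL1A1 fell and COL3A1 had 0 reads. COL5A3, the remaining type V chain, had 9 reads in all and was not tested.

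Cartilage fibrils are made of type II collagen (COL2A1), with type XI (COL11A1, COL11A2) as their nucleating partner. COL2A1 had 13 and 12 reads for hPSC, 141 and 109 for ectoderm, 25 and 47 for endoderm, and 11 and 15 for mesoderm. It rose in ectoderm (1.90 ± 0.38, adjusted p = 0.00102) and in endoderm (1.75 ± 0.41, adjusted p = 0.00531), where it was 1.26 with an adjusted p of 0.0848 without endoderm repeat 2, and was -0.11 ± 0.47 in mesoderm (adjusted p = 0.881). COL11A1 had 8 and 6, 79 and 71, 5 and 5, and 14 and 10 reads, and rose in ectoderm (2.00 ± 0.38, adjusted p = 0.000662). Its change was -0.26 ± 0.55 in endoderm (adjusted p = 0.785) and 0.60 ± 0.47 in mesoderm (0.333). Of a list of chondrocyte and notochord markers, MATN1 and NOTO were not listed in the table, ACAN was at 0 in both ectoderm libraries, and SOX9 had 57 and 36 reads there. The list summed to 48.3 and 37.2 CPM in ectoderm and to 64.0 and 51.6 in mesoderm. The 1 gene of the list that was tested rose against hPSC in both, by 3.46 and 3.90. Its difference between ectoderm and mesoderm was -0.44 and was not called. COL27A1, a fibrillar collagen with a broken repeat, found in cartilage, had 6 and 3, 62 and 43, 23 and 38, and 18 and 6 reads. It rose in ectoderm (2.11 ± 0.55, adjusted p = 0.00529) and endoderm (2.97 ± 0.55, adjusted p = 0.00106) and was 1.23 ± 0.64 in mesoderm (adjusted p = 0.149). No COL27A1 read lay in a transcript with a reference intron chain: its 25 assembled transcripts were partial or unmatched. COL11A2 had 23 reads in all.

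The transcripts of the ectoderm libraries averaged 4406 and 4650 nt per read, against 2975 to 3840 nt in the other libraries, and collagen transcripts are long (4960 to 5795 nt per collagen read). With a smooth trend on transcript length removed from every library, 10 of the 23 collagens were called in ectoderm against hPSC, 6 higher and 4 lower, and 15 were in endoderm and 11 in mesoderm. Of all genes 35.02%, 27.03% and 31.4% were called in these fits. The ectoderm rises of COL14A1 (0.71, adjusted p = 0.193), COL27A1 (1.23, 0.109), COL4A2 (0.50, 0.265) and COL5A1 (0.29, 0.693) were not called in that fit, and COL1A1 was called lower (-1.33, 0.00405).

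Transcript choice within a gene was tested for 11 collagens of 2629 genes with at least 2 tested transcripts, and COL1A1 changed most clearly. Its usual transcript starts at chr17:50201631 on the minus strand of GRCh38 (51 exons), and a second one starts within intron 1, 1440 bases downstream, and reads through the last 244 bases of that intron into exon 2. The second form lacks exon 1, which holds the reference start codon, and its 3′ end lies 1132 bases earlier. The edge of exon 2 is shown as each form reads it, from GENCODE 29, with exon 1 or intron 1 in lower case and exon 2 in capitals.
COL1A1 exon 1 into exon 2: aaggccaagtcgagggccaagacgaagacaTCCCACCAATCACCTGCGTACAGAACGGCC
COL1A1 intron 1 into exon 2: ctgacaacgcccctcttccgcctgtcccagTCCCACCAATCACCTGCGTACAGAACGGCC

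The intron 1 form took 13.1% and 25% of COL1A1 reads for hPSC, 11.4% and 11.7% for ectoderm, 75.0% and 82.5% for endoderm, and 8.01% and 5.21% for mesoderm. In endoderm it was the majority form, with Wilson 95% intervals of 57.9% to 86.7% and 68.1% to 91.3%, above every other library. Its level was 37.7 ± 7.05 CPM in hPSC and 48.6 ± 10.8 CPM in endoderm, whereas the form with exon 1 was at 173 ± 63.3 CPM in hPSC and 12.8 ± 1.22 CPM in endoderm, from 113 and 72 and from 8 and 7 reads. The low COL1A1 count of endoderm thus lay in the form with exon 1. In mesoderm both forms were high, at 3109 ± 605 and 214 ± 27.6 CPM. By edgeR's diffSpliceDGE the choice differed in endoderm against hPSC (adjusted p = 0.000216), ectoderm against endoderm (3.56e-06), endoderm against mesoderm (1.78e-07) and mesoderm against hPSC (0.018). The shares of all genes called in those comparisons were 5.06%, 14.6%, 9.81% and 7.00%. In ectoderm against hPSC choice was called for 0 collagens and for 5.63% of all genes, and 0 of the 11 had an unadjusted p under 0.05. The mesoderm call was lost without hPSC repeat 2 and without either mesoderm repeat. Mean transcript length per read was lowest in endoderm (3073 and 2975 nt), and its part in this result was not tested.

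**Figure D4:**
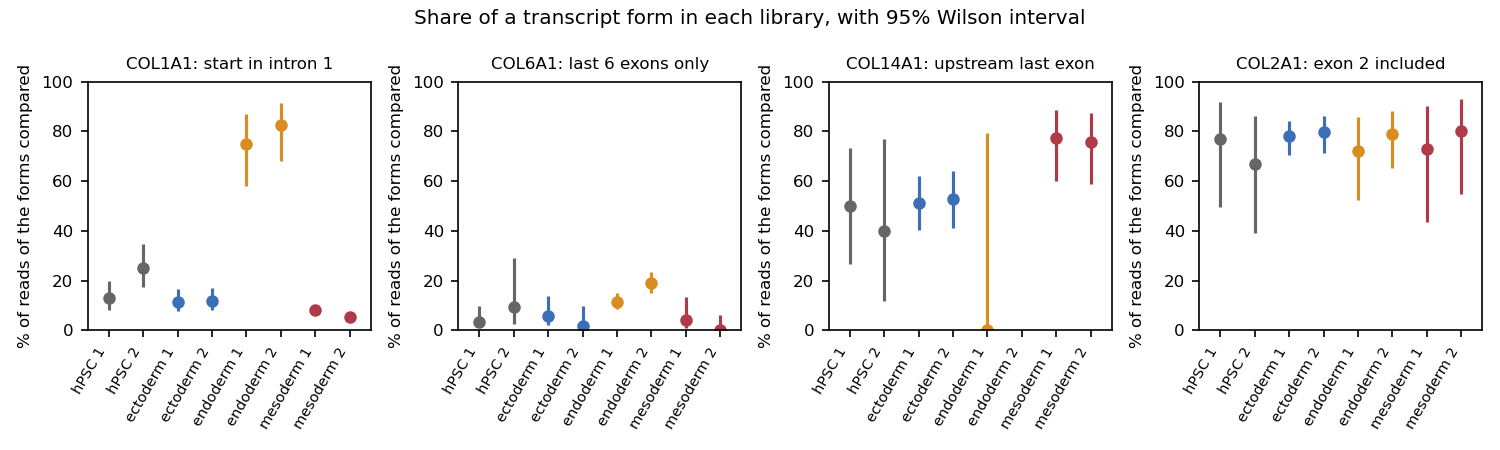
Share of reads (vertical axis, percent of the reads of the forms compared, with 95% Wilson intervals) of 1 transcript form of COL1A1, COL6A1, COL14A1 and COL2A1 in each library with such reads. COL1A1 transcripts that start in intron 1 are at 75.0% and 82.5% in endoderm and at 25% or less elsewhere, while COL2A1 exon 2 is included in 66.7% to 80.0% of reads in every library.

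COL2A1 exon 2 (chr12:47999919-48000125 on GRCh38, minus strand) encodes a cysteine-rich domain of the propeptide. Transcripts that keep it, called type IIA, are made in embryonic and non-cartilage tissue, and those that skip it, type IIB, in mature chondrocytes. The exon is shown whole, in capitals, because its presence separates the forms: it has 207 bases, 10 in-frame TGT or TGC codons and 4 GGN codons.
COL2A1 exon 2: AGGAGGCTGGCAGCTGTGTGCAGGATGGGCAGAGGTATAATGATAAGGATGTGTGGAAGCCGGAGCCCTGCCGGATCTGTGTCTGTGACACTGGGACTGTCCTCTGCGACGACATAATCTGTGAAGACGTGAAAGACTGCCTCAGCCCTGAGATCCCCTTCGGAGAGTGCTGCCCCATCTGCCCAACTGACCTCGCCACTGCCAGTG
Reads with exon 2 numbered 10 and 8 for hPSC, 110 and 87 for ectoderm, 18 and 37 for endoderm, and 8 and 12 for mesoderm, and reads without it 3 and 4, 31 and 22, 7 and 10, and 3 and 3. The share with exon 2 was 78.9% ± 1.27 (SD, n = 2) in ectoderm, where COL2A1 was highest, and 71.8% ± 7.25, 75.4% ± 4.75 and 76.4% ± 5.14 in hPSC, endoderm and mesoderm. No comparison was called (adjusted p between 0.789 and 0.996). The ranges of the groups overlapped, except that both hPSC shares were below both ectoderm shares.

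COL5A2 transcripts that skip a pair of neighbouring exons made up 15.5% and 14.6% of its reads in endoderm, 22.4% and 18.9% in mesoderm, and 21.4% and 27.8% in ectoderm. In hPSC it was 1 of 10 reads and 3 of 5, the widest spread of any group. Each skipped exon (chr2:189062865-189062918 and chr2:189061562-189061615, minus strand) has 54 bases. Both begin with a GGN codon and hold whole triplets, shown here with GGN codons in capitals, so the helix repeat continues across the skip.
COL5A2 skipped exon 1: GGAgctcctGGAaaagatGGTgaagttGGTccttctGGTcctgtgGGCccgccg
COL5A2 skipped exon 2: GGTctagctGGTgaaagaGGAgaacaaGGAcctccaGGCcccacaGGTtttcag
The skipping form does not match a reference intron chain, and its choice was called in no comparison. For COL5A1, choice was called in ectoderm against mesoderm (adjusted p = 0.0464, background 5.97%). Its complete 66-exon transcript had 11 and 13 reads in ectoderm of 27 and 29, and 109 and 87 of 148 and 125 in mesoderm. The next most abundant over all libraries, a 36-exon form that keeps an intron, had 4 and 4, and 11 and 17. A 2-exon form that keeps an intron had 8 and 5 reads in ectoderm, where it ranked second, and 5 and 9 in mesoderm. The call was lost when either repeat of ectoderm, endoderm or mesoderm was left out.

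Type IV collagen is the sheet-forming collagen of basement membranes, and its genes lie in pairs that face away from each other. COL4A1 and COL4A2 encode the chains found in nearly all basement membranes. COL4A1 had 19 and 5 reads for hPSC, 143 and 143 for ectoderm, 100 and 71 for endoderm, and 27 and 24 for mesoderm. It rose in ectoderm (2.19 ± 0.42, adjusted p = 0.00067) and endoderm (3.06 ± 0.42, adjusted p = 9.05e-05). In mesoderm it was 0.93 ± 0.46 (adjusted p = 0.129), and 2.04 with an adjusted p of 0.00447 without hPSC repeat 1. COL4A2 had 50 and 23, 245 and 226, 94 and 59, and 41 and 51 reads, and rose in ectoderm (1.30 ± 0.35, adjusted p = 0.00667) and endoderm (1.30 ± 0.36, adjusted p = 0.015), where it was 1.03 with an adjusted p of 0.153 without endoderm repeat 1. In mesoderm it was 0.19 ± 0.37 (adjusted p = 0.724). In both genes every ectoderm and endoderm library exceeded every hPSC library in reads.

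The 2 genes start 126 bases apart on opposite strands, COL4A1 at chr13:110307157 and COL4A2 at chr13:110307284 (RefSeq, GRCh38.p14), and all reads of both genes lay in transcripts assembled from within 100 bases of these starts. The region between the starts is shown on the plus strand (chr13:110307138-110307303), with the bases between them in capitals and 20 transcribed bases of each gene beside them, because it serves both genes.
COL4A1-COL4A2: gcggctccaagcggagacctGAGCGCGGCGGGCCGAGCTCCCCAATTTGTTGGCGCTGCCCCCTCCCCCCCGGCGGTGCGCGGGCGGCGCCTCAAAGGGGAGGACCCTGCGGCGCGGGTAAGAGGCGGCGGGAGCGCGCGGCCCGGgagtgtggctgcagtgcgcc
The promoter window of COL4A2 (250 bases before to 50 after its start) held 1 match to CCAAT, 1 to GGGCGG (the GC box) and 0 to TATAAA (the TATA box), on either strand. Of 35116 promoter windows of that length in the RefSeq table, 34.6% held CCAAT, 45% GGGCGG and 11.5% TATAAA. Assembled ends often equal annotated ones to the base, so the start position itself may come from the annotation that guided the assembly.

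COL4A5 and COL4A6, the X-linked pair, encode chains of more specialised membranes, such as those of kidney, skin and smooth muscle. COL4A5 had 5 and 10 reads for hPSC, 186 and 184 for ectoderm, 28 and 24 for endoderm, and 38 and 45 for mesoderm. It rose in all 3 groups, by 3.20 ± 0.40 in ectoderm (adjusted p = 2.48e-05), 1.99 ± 0.44 in endoderm (0.00374) and 2.28 ± 0.42 in mesoderm (0.000779), and was the sole type IV gene called in mesoderm. COL4A6 had 6 and 4, 138 and 114, 51 and 44, and 16 and 7 reads, and rose in ectoderm (3.22 ± 0.43, adjusted p = 4.15e-05) and endoderm (3.45 ± 0.44, adjusted p = 4.48e-05). In mesoderm it was 1.02 ± 0.53 (adjusted p = 0.151). Ectoderm exceeded endoderm in COL4A5 (1.21 ± 0.33, adjusted p = 0.00494), and in COL4A6 the difference was -0.22 ± 0.30 (adjusted p = 0.534). With the transcript length trend removed, the COL4A5 difference was 0.16 (adjusted p = 0.705), that of COL4A6 was -1.19 (0.00386) and that of COL4A2, 0.00 in the fit without that step, was -1.02 (0.0129). COL4A3 and COL4A4, the pair of the mature glomerular membrane, had 3 and 9 reads in all libraries together.

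COL4A6 has 2 RefSeq start sites, 380 and 1416 bases from the COL4A5 start at chrX:108439838. Of 380 COL4A6 reads, 345 lay in transcripts assembled from within 100 bases of the far one (chrX:108438422), and none in any from the near one. The ends of the reads themselves were not examined. The 250 bases before the far start are shown (chrX:108438423-108438672, minus strand, RefSeq, GRCh38.p14), with its GC box in capitals.
COL4A6 upstream: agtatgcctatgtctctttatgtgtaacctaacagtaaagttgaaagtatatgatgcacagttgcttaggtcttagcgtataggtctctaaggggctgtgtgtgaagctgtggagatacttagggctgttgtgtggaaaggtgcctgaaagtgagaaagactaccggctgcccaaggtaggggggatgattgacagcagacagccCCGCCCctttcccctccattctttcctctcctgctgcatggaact
The window at the near start held 3 matches to CCAAT, and the one at the far start held 0.

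COL4A5 also varies by 2 exons of 9 bases each (chrX:108670228-108670236 and chrX:108674745-108674753), 1 triplet apiece. They are shown in capitals between 27 coding bases on each side, from GENCODE 29 exons joined as in the assembled transcripts.
Both small exons: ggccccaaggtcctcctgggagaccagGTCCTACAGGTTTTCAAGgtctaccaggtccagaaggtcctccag
Second only: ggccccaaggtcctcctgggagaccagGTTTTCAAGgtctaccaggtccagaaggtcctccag
Neither: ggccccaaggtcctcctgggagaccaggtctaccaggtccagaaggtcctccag
In ectoderm 91 and 90 reads had both, 61 and 67 had the second only and 6 and 6 had neither. The form with the second only matched no reference intron chain, and it took 38.6% and 41.1% of these reads for ectoderm, 33.3% and 54.5% for endoderm, and 38.9% and 45% for mesoderm. The form with neither took 3.80% and 3.68% for ectoderm, 18.5% and 13.6% for endoderm, and 8.33% and 12.5% for mesoderm, from 3 to 6 reads a library. No comparison of COL4A5 transcript choice was called (adjusted p between 0.293 and 0.976).

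Type VI collagen forms beaded filaments around cells from the chains of COL6A1, COL6A2 and COL6A3. COL6A1 had 87 and 21 reads for hPSC, 70 and 53 for ectoderm, 379 and 340 for endoderm, and 50 and 60 for mesoderm. COL6A2 had 50 and 8, 35 and 16, 163 and 136, and 45 and 35. Endoderm was the high group for both, above every other library. COL6A1 rose there by 3.0 ± 0.43 (adjusted p = 0.000121) and COL6A2 by 2.62 ± 0.49 (0.00108). Both calls held without either hPSC library, but the values moved to 4.20 and 4.32 without repeat 1 and to 2.37 and 1.90 without repeat 2. COL6A3, which encodes the third chain, had 1 and 0 reads in endoderm, 7 and 1 in hPSC, 1 and 0 in ectoderm, and 8 and 9 in mesoderm, where it was 19.2-fold above endoderm by pooled counts (95% exact interval 3.02 to 804). In ectoderm COL6A1 was called lower than hPSC (-1.18 ± 0.43, adjusted p = 0.0335) and so was COL6A2 (-1.57 ± 0.53, adjusted p = 0.0237). Without hPSC repeat 1 these became 0.0010 (adjusted p = 1) and 0.11 (0.89), and both calls also ended without any ectoderm, endoderm or mesoderm library (adjusted p 0.0908 to 0.218 and 0.0616 to 0.243). In mesoderm the changes were -0.10 ± 0.43 for COL6A1 (adjusted p = 0.887) and 0.33 ± 0.51 for COL6A2 (adjusted p = 0.642). Without hPSC repeat 1 they were 1.09 (0.0227) and 2.01 (0.001).

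Short type VI transcripts were frequent in endoderm. A COL6A1 transcript with the last 6 exons had 43 and 64 reads there, or 11.6% and 19% of those of the 35-exon and 6-exon forms, against 0% to 9.52% elsewhere. Choice was called in endoderm against mesoderm (adjusted p = 0.0406), but not when either repeat of any of the 3 differentiated groups was left out. In endoderm against hPSC its adjusted p was 0.243. COL6A2 had 24 and 23 endoderm reads of a form that ends after its opening 5 exons, and between 0 and 4 in any other library. Its share of COL6A2 reads was 15.8% ± 1.55 in endoderm, 7.25% ± 7.42 in hPSC, 1.43% ± 2.02 in ectoderm and 6.83% ± 6.51 in mesoderm. Choice was called for COL6A2 in no comparison.

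Fibril-associated collagens coat fibrils or link them to other matrix. COL9A1, COL9A2 and COL9A3 encode the chains of type IX collagen, which decorates type II fibrils, and they were high in different groups. COL9A1 had 16 and 16 reads for hPSC, 141 and 136 for ectoderm, 3 and 2 for endoderm, and 4 and 6 for mesoderm. COL9A2 had 4 and 1, 14 and 9, 143 and 117, and 0 and 3. COL9A3 had 25 and 1, 41 and 36, 19 and 13, and 42 and 42. COL9A1 was highest in both ectoderm libraries, and COL9A2 in both endoderm libraries. COL9A1 rose in ectoderm (1.70 ± 0.33, adjusted p = 0.000714). It was lower in endoderm (-2.42 ± 0.56, adjusted p = 0.00467) and mesoderm (-1.83 ± 0.48, adjusted p = 0.00826), where leaving out endoderm repeat 2 gave an adjusted p of 0.0593 and leaving out mesoderm repeat 1 gave 0.0931. COL9A2 rose in endoderm by 5.88 ± 0.52 (adjusted p = 2e-06) and was 76.5-fold above mesoderm by pooled counts (95% exact interval 25.9 to 374). In ectoderm its change was 0.77 ± 0.73 (adjusted p = 0.398).

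COL9A3 was called in mesoderm against hPSC (1.55 ± 0.57, adjusted p = 0.0457), a call that ended in 7 of the 8 fits with a library left out (adjusted p 0.0808 to 0.178). Its hPSC repeats differed 25 to 1. Without hPSC repeat 1 it was 3.62 above hPSC in ectoderm (adjusted p = 0.000559) and 4.0 in endoderm (0.000404), against 0.19 ± 0.59 and 0.55 ± 0.64 with both. Of the 324 COL9A1 reads, 284 lay in transcripts that begin at the downstream RefSeq start and none in any that begin at the upstream one, that of the long form. COL9A2 transcripts that retain introns had 33 and 25 reads in endoderm of 143 and 117.

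COL12A1 and COL14A1 encode collagens that bridge fibrils, and COL16A1 and COL21A1 encode smaller members of the same group. COL12A1 had 0 and 1 reads for hPSC, 3 and 5 for ectoderm, 0 and 0 for endoderm, and 48 and 51 for mesoderm, which was 103-fold above hPSC by pooled counts (95% exact interval 18.1 to 4126) and at least 37.4-fold above endoderm. The mesoderm rise was called (adjusted p = 1.13e-05). COL16A1 had 1 and 2, 10 and 8, 2 and 0, and 30 and 23 reads, 18.5-fold above hPSC in mesoderm (5.98 to 92.4, adjusted p = 0.000288). COL21A1 had 8 and 8 reads in mesoderm and at most 1 in any other library. It was 8.36-fold above hPSC by pooled counts (1.97 to 74.9) and did not pass the filter. All 3 were highest in the mesoderm libraries, like COL3A1.

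COL14A1 had 14 and 5 reads for hPSC, 80 and 70 for ectoderm, 1 and 0 for endoderm, and 31 and 33 for mesoderm. It rose in ectoderm (1.57 ± 0.41, adjusted p = 0.0058) and mesoderm (1.59 ± 0.44, adjusted p = 0.0111) and fell in endoderm (adjusted p = 0.00801, hPSC 20.6-fold above endoderm by pooled counts, 3.27 to 855). The mesoderm call was lost without mesoderm repeat 2 (0.0712), and the endoderm call without endoderm repeat 2 (0.0995) or hPSC repeat 1 (0.0583). None of the 3 was called with DESeq2 (adjusted p 0.0709, 0.0763 and 0.114 for ectoderm, endoderm and mesoderm). Its reads split between 2 last exons. The upstream one was used in 51.2% and 52.9% of reads in ectoderm and in 77.4% and 75.8% in mesoderm, and in 50.0% and 40.0% of 14 and 5 hPSC reads. The difference between ectoderm and mesoderm exceeded the spread between repeats but was not called (adjusted p = 0.134).

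COL18A1 encodes the heparan sulfate collagen of basement membrane zones, from which endostatin is cut. It had 171 and 23 reads for hPSC, 406 and 356 for ectoderm, 87 and 39 for endoderm, and 210 and 216 for mesoderm. Against hPSC no change was called, at 0.63 ± 0.53 in ectoderm (adjusted p = 0.34), -0.35 ± 0.56 in endoderm (0.689) and 1.03 ± 0.54 in mesoderm (0.148). The call turned on the hPSC library: without repeat 1 the changes were 2.50 (1.53e-07), 1.55 (0.0024) and 2.91 (6e-09), and without repeat 2 the endoderm change was -1.12 (0.00366). Endoderm against mesoderm was -1.38 ± 0.55 (adjusted p = 0.0495), which ended without any of the 6 libraries of the differentiated groups (0.0847 to 0.379). Of 1508 reads, 1445 lay in transcripts assembled from within 100 bases of the start site of the short form (chr21:45405165). None lay in any from that of the long form (chr21:45455522). A splice acceptor 3 bases upstream was used in 25.7% and 47.8% of reads for hPSC, 26.4% and 24.2% for ectoderm, 36.8% and 43.6% for endoderm, and 17.6% and 19% for mesoderm, with no call.

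COL26A1, a small collagen first described in the developing gonad, had 63 and 20 reads for hPSC, 87 and 134 for ectoderm, 14 and 8 for endoderm, and 25 and 55 for mesoderm. It was lower in endoderm (-1.66 ± 0.57, adjusted p = 0.0417), a call that ended in 7 fits with a library left out (0.064 to 0.33), and was 0.07 ± 0.45 in ectoderm (adjusted p = 0.92) and -0.18 ± 0.48 in mesoderm (0.796). An acceptor 6 bases upstream served 35% to 57.1% of reads in all but mesoderm, whose repeats were at 28% and 56.4%. The transmembrane collagens COL13A1 and COL23A1 were low: COL13A1 had 46 reads in all, and COL23A1 had 11 and 3, 12 and 5, 16 and 10, and 9 and 4. COL23A1 was not called against hPSC, at -1.11 ± 0.63 in ectoderm (adjusted p = 0.158), 1.11 ± 0.58 in endoderm (0.169) and -0.26 ± 0.66 in mesoderm (0.785). Without hPSC repeat 2 the ectoderm value was -1.60 (0.047), and without repeat 1 the endoderm value was 2.19 (0.0432). COL7A1, the anchoring fibril of skin, had 1 and 1, 7 and 10, 3 and 7, and 6 and 5 reads. Another 10 members, among them COL15A1, COL17A1, COL22A1, COL25A1 and COL8A1, stayed below 10 CPM in every group, with 1 to 24 reads each, and are not shown further.

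The hPSC libraries decided several values. Among collagens with enough reads the chi-square between repeats was 18.2 per gene in hPSC and 2.30 to 3.87 in the other groups. COL18A1, COL6A1, COL6A2, COL9A3 and COL26A1 were all lower in repeat 2, and COL1A2 was higher there. In the fits without one hPSC library 24 collagens were tested. With hPSC repeat 1 left out, those called were 12 in ectoderm (11 higher, 1 lower), 17 in endoderm (14 and 3) and 15 in mesoderm (14 and 1), beside 49.4%, 26.5% and 42.3% of all genes. With hPSC repeat 2 left out they were 13 (9 and 4), 16 (11 and 5) and 10 (9 and 1), beside 42.4%, 33.4% and 29.8% of all genes. Values that stayed called but moved by over 1.5 times without repeat 1 included COL4A1 (3.28 in ectoderm, 4.18 in endoderm), COL9A2 (7.02 in endoderm) and COL14A1 (2.34 in ectoderm, 2.36 in mesoderm). Without repeat 2 they included COL4A5 (3.94, 2.68 and 2.96 for ectoderm, endoderm and mesoderm) and COL16A1 (4.53 in mesoderm). SOX2, a pluripotency gene, had 71 reads in repeat 1 and 5 in repeat 2, and THY1 had 205 and 377.

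A list of 19 genes that make collagen inside the cell, by hydroxylating, folding and exporting its chains, gave 17 tested genes. In ectoderm 2 rose and 6 fell, in endoderm 6 rose and 1 fell, and in mesoderm 3 rose and 0 fell, with medians of -0.58, 0.78 and 0.38. Of all genes 48.6%, 27.1% and 35.2% were called in these comparisons. The 19 genes summed to 3383 and 1906 CPM for hPSC, 2049 and 1938 for ectoderm, 5284 and 4789 for endoderm, and 3713 and 3817 for mesoderm. On this scale both ectoderm libraries were below hPSC repeat 1 and neither was below hPSC repeat 2. For the genes of this and the next 2 lists, other settings are not shown. P4HB, a subunit of prolyl 4-hydroxylase, had 546 and 339 reads for hPSC, 638 and 532 for ectoderm, 1629 and 1476 for endoderm, and 810 and 831 for mesoderm. It fell in ectoderm (-0.99 ± 0.31, adjusted p = 0.0154) and rose in endoderm (2.05 ± 0.32, adjusted p = 0.000242). PLOD1, a lysyl hydroxylase, did the same (-1.19 ± 0.31 and 1.5 ± 0.31), as did PPIB, a prolyl isomerase of the hydroxylation complex (-2.58 ± 0.32 and 1.07 ± 0.30). SERPINH1, the collagen chaperone HSP47, fell in ectoderm (-0.99 ± 0.29). P3H2, a prolyl 3-hydroxylase that acts on type IV collagen, rose in endoderm (2.05 ± 0.58) and mesoderm (2.07 ± 0.58). In mesoderm, where fibrillar collagen reads were most numerous, P4HA1 (1.25 ± 0.38) and PLOD2 (2.69 ± 0.69) rose as well.

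Of 14 genes that trim and crosslink collagen outside the cell, 8 were tested. In ectoderm 1 rose and 2 fell, in endoderm 1 rose and 4 fell, and in mesoderm 4 rose and 2 fell, where 48.6%, 27.1% and 35.2% of all genes were called. PXDN, the peroxidase that crosslinks type IV collagen, had 94 and 43 reads for hPSC, 516 and 476 for ectoderm, 259 and 152 for endoderm, and 162 and 128 for mesoderm, and rose in ectoderm (1.48 ± 0.35, adjusted p = 0.00309) and endoderm (1.82 ± 0.36, adjusted p = 0.00162). LOXL2, a lysyl oxidase, had 104 and 77, 245 and 241, 104 and 86, and 735 and 684 reads, and rose in mesoderm (2.81 ± 0.30). BMP1, the procollagen C-proteinase, rose in mesoderm (1.88 ± 0.47), and LOXL1 did so too (1.82 ± 0.67), while LOXL3 fell there (-4.14 ± 0.65). PCOLCE, which enhances that proteinase, fell in ectoderm (-2.81 ± 0.39) and endoderm (-3.10 ± 0.52). LOXL1 had no endoderm read. Of 7 collagen receptors 2 were tested. DDR1, a receptor kinase, rose in ectoderm (0.88 ± 0.30) and endoderm (1.11 ± 0.31), and ITGB1, the beta chain of collagen-binding integrins, rose in ectoderm (1.11 ± 0.40) and mesoderm (1.98 ± 0.40).

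Amnion and trophoblast markers moved with the mesoderm collagens. All 8 amnion and trophoblast markers rose in mesoderm, led by GABRP with 2269 and 2355 reads and IGFBP3 with 587 and 655. An endothelial list of 5 genes summed to 35.8 and 17.9 CPM in mesoderm, 30.8 and 26.7 in hPSC, 44.0 and 53.8 in ectoderm, and 17.1 and 11.9 in endoderm. A fibroblast and mesenchymal list of 8 genes summed to 670 and 792 CPM in mesoderm, 406 and 696 in hPSC, and between 40.9 and 79.6 in ectoderm and endoderm. Of its 3 tested genes 1 rose and 1 fell in mesoderm against hPSC, where 35.2% of all genes were called. Its mesoderm reads were mostly LUM, a fibril-binding proteoglycan, at 291 and 334 reads, while THY1 made up most of the hPSC reads. DCN had 12 and 7 mesoderm reads, PRRX1 2 and 2, POSTN 0 and 3, and TWIST1 was not listed. In ectoderm the neural crest list summed to 152 CPM in each library, mostly NGFR, with SOX10 at 3 reads in each and FOXD3 and TFAP2B at 0. The list summed to 168 and 37.4 CPM in hPSC, 102 and 83.4 in mesoderm, and 6.83 and 6.82 in endoderm. Of its 2 tested genes 0 were called in ectoderm against hPSC, where 48.6% of all genes were. The part of such cells in the collagen differences was not tested.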

How the data were processed

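Long reads from 8 libraries, 2 repeats of each of 4 groups, were analysed. Reads were mapped with minimap2 and transcripts assembled with StringTie on GRCh38 (hg38), per the submitters' processing notes; versions and the read counter are not given in the sources used here. The authors deposited whole-number read counts per transcript of an assembly combined over the groups. The endoderm columns of the deposited table carry the unit name expected counts here, but hold whole raw counts, and nothing was rounded. Class codes and exons came from the deposited transcript models, whose coordinates, a unit classed as other, are not measurements.

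Counts were summed per gene. One edgeR 4.0.16 quasi-likelihood fit (R 4.3.3) over all 8 libraries used TMM scaling, filterByExpr with a minimum count of 10, and Benjamini-Hochberg adjustment over 10847 genes, with a threshold of 0.05 ("called"). Transcript choice was tested with edgeR's diffSpliceDGE over 2629 genes. DESeq2 1.42.0 was an alternative among 15 settings. Errors of fold changes are SE, and of levels SD. The members and lists were chosen with earlier results of these data known. Members with at least 10 CPM in a group were named with all counts, and up to 4 called genes per comparison from each other list. The floor for a count of 0 is 3 reads over a group, and intervals are at 95%. On simulated data with 200 genes changed 4-fold, 75.5% (ectoderm, 9406 genes), 72.5% (endoderm, 9517) and 65.5% (mesoderm, 9425) were recovered. Of the calls 5.03%, 5.23% and 9.66% were false, all above the threshold of 0.05 and the last furthest. Promoter sequences are from RefSeq, with entries for 26 of the 37 members.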

Additional observations from a re-analysis of the deposited data

Results flagged for a closer look

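Some transcripts that were left out of the collagen sums, since they lie within an intron or on the opposite strand, had at least 10 ectoderm reads and exceeded their level in hPSC. A single-exon transcript within COL4A2 had 7 and 10 reads in ectoderm (mean 8.13 CPM) and 1 and 0 in hPSC, and another had 4 and 6 (4.80 CPM) against 0 and 0. A transcript antisense to COL26A1, which overlaps its start, had 7 and 7 reads (6.58 CPM) against 1 and 1. One antisense to COL10A1 had 2 and 10 reads (6.02 CPM) against 0 and 0. Ectoderm libraries held the most reads, so a minimum of 10 reads is reached at a lower CPM there. In mesoderm the first COL4A2 transcript had 2 and 2 reads (3.77 and 3.97 CPM), also above hPSC. The transcript antisense to COL26A1 had 3 and 1 there (5.65 and 1.98 CPM), above hPSC too. The other COL4A2 transcript had 0 and 1 mesoderm reads, and the one antisense to COL10A1 had 0 and 0.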

How the results depend on the processing

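Of 84 calls of single collagen genes, 52 held in all 15 settings and 1, COL27A1 in endoderm against hPSC, in the 14 that gave it a value. Scaling by library totals was added after the TMM factors were seen. Without hPSC repeat 1, COL6A1 and COL6A2 in ectoderm against hPSC became 0.0010 and 0.11, COL18A1 in endoderm 1.55 and COL6A1 in mesoderm 1.09; without hPSC repeat 2 they were -1.75, -2.22, -1.12 and -0.73. For ectoderm against endoderm, COL1A1 became -0.11 and COL4A2 -1.02 with the length trend removed, and COL1A2 0.74 with library totals. Leaving out single libraries moved both the number of collagens called and the share of all genes called in every comparison between groups. Each such fit left a group with a single library, so its counts are not given here. For transcript choice the number of collagens called stayed the same in ectoderm and endoderm against hPSC and varied in the other comparisons. The comparisons are, in order, ectoderm, endoderm and mesoderm against hPSC, ectoderm against endoderm, ectoderm against mesoderm and endoderm against mesoderm. With reference-matching transcripts only, 8 of 21 collagens were called in ectoderm against hPSC, beside 46.6% of all genes. Choice was then tested for 5 collagens and called for 1, COL6A1, in endoderm against mesoderm, and for 0 in every other comparison. The COL1A1 form that starts in intron 1 is not among those transcripts. COL1A1 choice could therefore not be tested in this setting. A filter of at least 5 counts in 2 libraries gave 0 for choice in ectoderm against mesoderm and 1 in endoderm against mesoderm. The repeat numbers share only a number (correlations of same-numbered deviations -0.032 to 0.134). A fit with the replicate block called 12, 15, 11, 12, 16 and 17 of 23 collagens in that order. Of all genes it called 47.1%, 25.8%, 33.3%, 62.1%, 33.6% and 45.9%. For choice it called 0 collagens in ectoderm against mesoderm and 1 in endoderm against mesoderm. DESeq2 called 9 collagens in ectoderm against hPSC (8 higher, 1 lower), 13 in endoderm (11 and 2) and 8 in mesoderm (8 and 0). It called 11 in ectoderm against endoderm (6 and 5), 11 in ectoderm against mesoderm (3 and 8) and 13 in endoderm against mesoderm (7 and 6). It tested 25 collagens in ectoderm and in endoderm against hPSC, and 26 in each other comparison. Of all genes it called 22.7%, 13.4%, 15.0%, 34.9%, 12.3% and 24.7% in that order. Besides calls named in the report, it did not call COL6A1 in ectoderm (adjusted p = 0.0556), COL26A1 in endoderm (0.0873), or COL9A1 (0.0885) and COL9A3 (0.163) in mesoderm against hPSC. Over all genes it called 2839, 1604 and 2047 in ectoderm, endoderm and mesoderm against hPSC, where edgeR called 5275, 2943 and 3815, and 1678 and 3240 in ectoderm and endoderm against mesoderm, where edgeR called 3846 and 5107. The cause of these changes was not tested.

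From reference-matching transcripts only, hPSC, ectoderm, endoderm and mesoderm had fibrillar sums of 374, 472, 443 and 5524 CPM. Basement membrane sums were 526 in ectoderm and 192 in mesoderm, other sums 707, 1103 and 888 in ectoderm, endoderm and mesoderm, and all collagens 1705, 1894 and 6604. With TMM library sizes, ectoderm, endoderm and mesoderm had fibrillar sums of 463, 837 and 5310 CPM, basement membrane sums of 512, 537 and 217, other sums of 666, 1730 and 947, and all-collagen sums of 1641, 3104 and 6473. Counts under about 10 reads limit the low members.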
